A study of Caenorhabditis elegans with 2 samples.

Results

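Homeobox genes encode transcription factors with a DNA-binding homeodomain, and in Caenorhabditis elegans they set the identity of body regions, neurons, muscles and gland cells. The Hox genes among them pattern the body from head to tail, and many of the others act in a few cells each. EFL-1 is an E2F-family factor that works with a DP partner and with the Rb-like protein LIN-35 in the DREAM complex, which is best known for keeping cell cycle and germline genes off in non-dividing or somatic cells.

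The 75 homeobox genes described here were protein-coding genes whose symbol starts with ceh-, together with lin-39, mab-5, egl-5, php-3, nob-1, unc-86, mec-3, vab-7, unc-4, lim-4, lim-6 and ttx-3, taken from 19973 protein-coding genes of the 6 nuclear chromosomes. RefSeq product names of 71 of the 75 contained the word homeobox or homeodomain. The names of the other 4 were One cut domain family member for ceh-48 and ceh-49, Mechanosensory protein 3 for mec-3, and Transcription factor unc-86. Of the 75 genes, 55 could be placed in 9 classes from general knowledge, and 20 are called unclassified here. Those are ceh- genes for which no class was assigned.

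EFL-1::GFP was immunoprecipitated from whole L1 larvae of both sexes, and the DNA was sequenced as 2 libraries, biological replicates 1 and 2 of 1 group. The larvae were of strain YL424, which carries the unc-119(ed3) mutation and an integrated transgene, vrIs68, with EFL-1 tagged by GFP and FLAG under its own promoter and 3′ UTR, beside a working copy of unc-119. No other strain, stage or treatment was analysed here. Every cell type of the animal was pooled, so a site used in few cells and a site weakly used in many cells cannot be told apart. The transgene comes from 1 insertion line, and whether the native efl-1 gene is intact in this strain is not stated in the labels used here. Homeobox genes could therefore be compared with other genes of the same libraries only, and nothing could be tested between conditions.

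The reproducible list that the authors derived from both libraries held 3824 peaks, with scores of 35.7 to 7157 on the authors' own scale. The pooled list of peaks and background held 28550 entries, the replicate 1 list 30000 and the replicate 2 list 28686. The −log10 q-value of an entry exceeded 2 in 1196 entries of replicate 1 and in 12800 entries of replicate 2, so that support at this level in both libraries is limited by replicate 1. Library depth is unknown, because the files carry no counts of reads. Intervals on shares are 95% Wilson intervals unless named otherwise, and they cover counting error over genes only. For a count of 0 homeobox genes, the limit that 3 counts would give is printed with the Wilson upper bound.

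Few homeobox genes had an EFL-1::GFP peak, and 4 of the 6 promoter peaks scored below the median of 101 over the reproducible list. A reproducible summit lay in the promoter, the stretch reaching 500 bp before and 100 bp past an annotated start, of 6 of the 75 (8.0%, interval 3.72% to 16.4%), against 2947 of all 19973 protein-coding genes (14.8%). The genes were ceh-38, ceh-39, ceh-83, ceh-93, ceh-89 and ceh-92. The share over all genes lies inside the interval of the homeobox genes, so the difference was not larger than the counting error. In the adjoining window, beyond 500 and up to 2000 bp upstream, 6 homeobox genes had a summit (8.0%), namely ceh-92, ceh-100, ceh-9, ceh-5, ceh-20 and ceh-21, against 9.05% of all genes. No homeobox gene had a reproducible summit in an intron, a count that allows a share of up to 4.0% by 3 counts and 4.87% by the Wilson bound, against 1.96% of all genes. Over the 3 windows together, 11 of 75 homeobox genes (14.7%) had at least 1 summit, against 23.2% of all genes, and 64 had none.

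**Figure D1:**
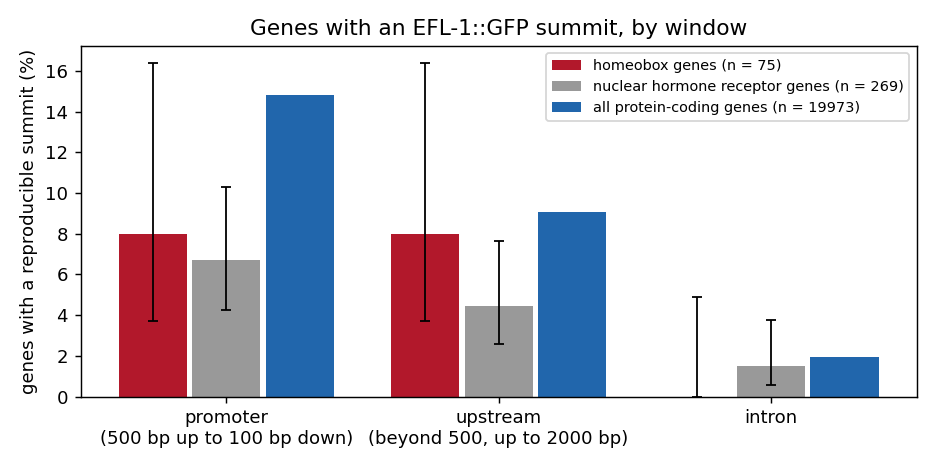
Share of genes (%, y axis) with a reproducible EFL-1::GFP summit in the promoter, in the window beyond 500 and up to 2000 bp upstream and in introns, for homeobox genes, nuclear hormone receptor genes and all protein-coding genes. Error bars are 95% Wilson intervals. The homeobox share is 8.0% in the promoter and 8.0% upstream, and no homeobox gene had an intron summit.

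No homeobox gene had a promoter summit among the top 20% of reproducible peaks by score, against 4.67% of all genes. That share lies under the Wilson bound of 4.87% and above the 4.0% of 3 counts, so the difference is at the edge of the counting error. Overlap with entries above a −log10 q of 2 in both replicate lists, the support asked for here, was met by the promoter peaks of 2 homeobox genes, ceh-38 and ceh-39 (2.67%, interval 0.734% to 9.21%), against 6.93% of all genes. The median score of the strongest promoter peak was 58.1 over the 6 homeobox genes and 169 over all 2947 genes with one. This order was turned in the strongest entries of replicate 1 alone, with a median of 38.9 over 3 homeobox genes and 34.2 over all genes, and with a promoter 2 times as long the medians were 150 and 163. The lowest and highest of the 6 were 40.8 at ceh-92 and 282 at ceh-38.

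Nuclear hormone receptor genes, another large family of transcription factors, had a promoter share of the same order. Of 269 genes with a symbol that starts with nhr-, 18 had a promoter summit (6.69%, interval 4.27% to 10.3%) and the median score of those 18 was 52.2. None of the 269 had a promoter peak supported in each replicate, against 2.67% of homeobox genes and 6.93% of all genes. That count of 0 allows a share of up to 1.41% by the Wilson bound. The difference between the families was not tested.

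The CUT class held both promoter peaks supported in each replicate. CUT genes encode homeodomain proteins that also carry a cut domain, and RefSeq names ceh-38, ceh-48 and ceh-49 as members of the One cut family. Of the 6 CUT genes, ceh-38 and ceh-39 had a promoter summit and ceh-21 an upstream one, and ceh-41, ceh-48 and ceh-49 had no reproducible summit in any window. Over all genes, 14.8% had a promoter summit, 23.2% a summit in any window and 6.93% a promoter peak supported in each replicate. The class was described with earlier results of these data known, so its counts are a description.

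The peak of ceh-38 (WBGene00000459), at chromosome II 6951438 to 6951668 in ce11, scored 282 in the reproducible list and ranked 873 of 3824. Its entries scored 45.7 in replicate 1 and 242 in replicate 2. The summit lay 39 bp downstream of an annotated ceh-38 start, in its 5′ UTR. It was also 265 bp upstream of malt-1, a paracaspase gene on the other strand, so this promoter peak is shared by a divergent pair. A weaker pooled entry, with a score of 28.4, lay 756 bp upstream of ceh-38.

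The peak of ceh-39 (WBGene00000460), at chromosome X 1856213 to 1856472, scored 220.2 and ranked 1058. ceh-39 is an X signal element, a gene whose X-linked dose helps to set the sex of the embryo. Its entries scored 38.9 in replicate 1, with a −log10 q of 2.561, and 181 in replicate 2. The summit was 161 bp upstream of the start and in the promoter of no other protein-coding gene.

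ceh-39, ceh-21 and ceh-41 lie in a row on the same strand of the X chromosome, with the small gene T26C11.9 between ceh-39 and ceh-21. The ceh-21 (WBGene00000444) peak, at chromosome X 1853583 to 1853918, scored 70.6 in the reproducible list, 15.9 in replicate 1 and 57.9 in replicate 2. Its summit was 1015 bp upstream of ceh-21 but only 98 bp downstream of the T26C11.9 start, in the 5′ UTR of that gene. A pooled entry upstream of ceh-41 scored 7.82 and was not in the reproducible list. On the flanks, a peak with a score of 270.3 lay in the promoter of T26C11.4. Another, with a score of 35.8, near the lowest of the list, lay 2622 bp upstream of ceh-39. It was in the upstream window of T26C11.8 and overlapped no replicate 1 entry.

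**Figure D2:**
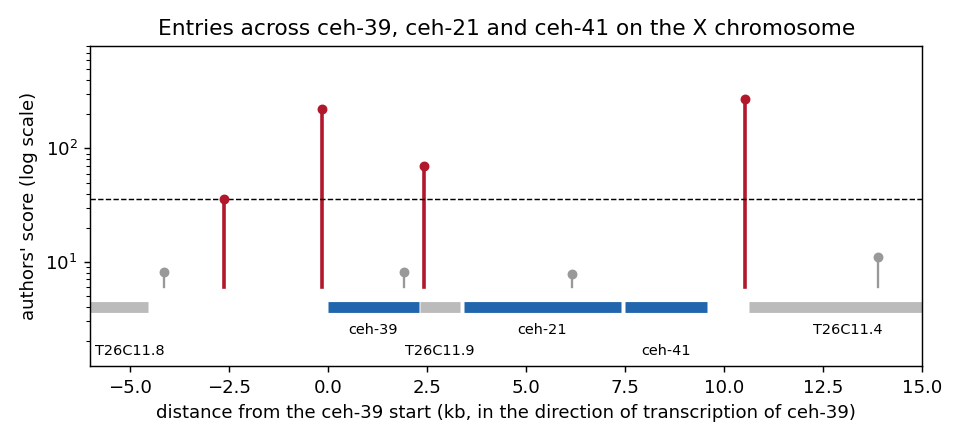
Pooled-list entries across ceh-39, ceh-21 and ceh-41 on the X chromosome, with distance from the ceh-39 start (kb) on the x axis and the authors' score (log scale) on the y axis. Red entries are in the reproducible list, grey ones are not, the dashed line is the lowest reproducible score, and bars are genes (those 3 in blue). The ceh-39 promoter entry scores 220.2 and the entry at T26C11.9, upstream of ceh-21, 70.6.

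The other 4 promoter peaks were weak and belonged to unclassified genes. The peak of ceh-83 (WBGene00018446; chromosome II 1736395 to 1736730) scored 70.8, with its summit 30 bp upstream of the start. It overlapped no entry of the replicate 1 list and an entry with a score of 62.9 in replicate 2. The peak of ceh-93 (WBGene00019864; chromosome X 388782 to 389117) scored 45.4, with 16.3 in replicate 1 and 25.6 in replicate 2. The summit of ceh-93 was 153 bp upstream of its start.

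The peak of ceh-89 (WBGene00009231; chromosome X 14141608 to 14141943) scored 43.5, with 10.4 in replicate 1 and 34.3 in replicate 2, and its summit was 170 bp upstream. That of ceh-92 (WBGene00013431; chromosome III 11581421 to 11581756) scored 40.8, with 11.7 in replicate 1 and 28.7 in replicate 2. Its summit lay 11 bp upstream of ceh-92 and 187 bp upstream of the divergent gene Y66D12A.6. All 4 summits were outside protein-coding genes. The 4 peaks ranked 2486 to 3505 of 3824, and none of them had a replicate 1 entry with a −log10 q of 2 or more.

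The strongest reproducible peak in any window of a homeobox gene was the upstream one of ceh-92, and it was nearer another start. It lay at chromosome III 11580560 to 11580872, scored 811 and ranked 426, with 149 in replicate 1 and 670.1 in replicate 2. The summit was 889 bp upstream of ceh-92, in the 3′ UTR of Y66D12A.6, and 233 bp upstream of Y66D12A.7, in whose promoter it therefore lay. The same held for ceh-100 (WBGene00012584), whose upstream peak at chromosome II 12604273 to 12604501 scored 237, with 29.9 in replicate 1 and 203 in replicate 2. That summit was 723 bp upstream of ceh-100 and 17 bp downstream of the start of lips-15, a lipase-related gene, in its 5′ UTR. A pooled entry in the ceh-100 promoter, 164 bp upstream, scored 30.8, below the lowest reproducible score of 35.7. It overlapped an entry with a score of 39.7 in replicate 2 and none in replicate 1.

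Of the 6 upstream peaks, the 3 not in the promoter of any protein-coding gene were at ceh-9, ceh-5 and ceh-20. ceh-20 (WBGene00000443) encodes the worm relative of Pbx and Extradenticle, the cofactors with which Hox proteins bind DNA. Its peak at chromosome III 6978962 to 6979297 scored 79.1, with 12.3 in replicate 1 and 64.7 in replicate 2, and the summit was 754 bp upstream of the start. No other Pbx-type gene, namely ceh-40 and ceh-60, had a reproducible summit.

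The peaks at ceh-9 (WBGene00000434; chromosome I 568469 to 568628) and ceh-5 (WBGene00000430; chromosome I 9725268 to 9725603) scored 123 and 107. The ceh-9 peak scored 14.9 in replicate 1 and 104 in replicate 2, and the ceh-5 peak 22.1 in replicate 1 and 89.7 in replicate 2. Their summits were 1968 and 1733 bp upstream, near the outer edge of the window, and the ceh-5 one lay in the 3′ UTR of eat-16 and in an intron of ocrl-1. These were the only 2 of 19 genes of the NK and other ANTP classes with a reproducible summit.

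Of the 12 distinct peaks, 4 were supported in each replicate at a −log10 q above 2 (ceh-92 upstream, ceh-38, ceh-100 and ceh-39), against 1200 of all 3824 peaks (31.4%). Any entry of replicate 1 overlapped 11 of the 12, against 76.3% of all 3824 peaks, and any entry of replicate 2 all 12. The median score of the 12 peaks was 93.3, against 101 over the whole reproducible list. Scores of the replicate lists are not on a shared scale, and replicate 2 scored higher than replicate 1 at each of the 11 peaks with both.

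**Figure D3:**
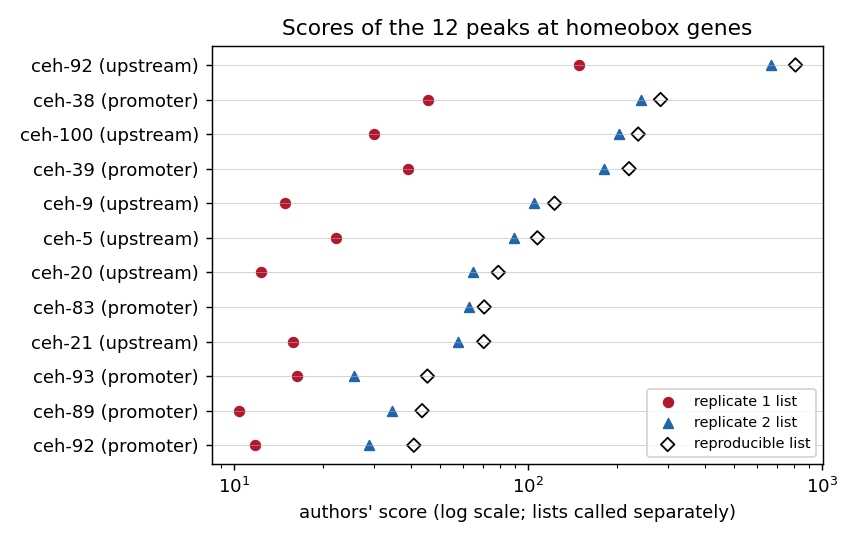
Authors' score (log scale, x axis) of the 12 reproducible peaks at homeobox genes in the replicate 1, replicate 2 and reproducible lists, ordered by score. The upstream peak of ceh-92 is the highest in all 3 lists, and ceh-83 has no replicate 1 entry.

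Sequence from 4 of these peaks is given because it shows the range from a peak with an E2F core to one with none. The stretch holds the summit in the ceh-92, ceh-20 and ceh-39 peaks, and in the ceh-93 peak it is centred on a core 37 bp from the summit and does not reach it. Each is 30 bases of the RefSeq copy of WBcel235, read 5′ to 3′ on the strand of the homeobox gene, with a core in capitals. As E2F cores the search took TTCCCGC as well as TTGGCGC, and further TTCGCGC and also TTTCGCG, of which the last pair can overlap. As CHR cores, the element bound by LIN-54 of DREAM, it took TTTGAA and also TTCGAA. Both strands were searched within 50 bp of the summit.
ceh-92 promoter, chrIII:11581561-11581590, plus strand, E2F core: tactctgtgtttTTCCCGCaaacaccgtca
ceh-93 promoter, chrX:388898-388927, minus strand, CHR core: acacacactctcTTCGAAttgtctcccgcg
ceh-20 upstream, chrIII:6979107-6979136, plus strand, CHR core: tttctctgttgtTTCGAAggaaccgctacg
ceh-39 promoter, chrX:1856318-1856347, minus strand, no core: gtgcgctatttaggtgcacgtctggtgagc

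An E2F core was present within 50 bp of 1 of the 12 summits, the weak ceh-92 promoter peak, with a share of 8.33% and an exact Clopper-Pearson 95% interval of 0.211% to 38.5%. A CHR core was present at 3, the promoter peaks of ceh-92 and ceh-93 and the upstream peak of ceh-20, with an interval of 5.49% to 57.2%. Over all reproducible peaks the shares were 16.6% for E2F and 34.4% for CHR. Windows of the same length centred 100 bp upstream of the outermost start of every protein-coding gene held an E2F core in 3.74% and a CHR core in 32.9%. With 12 peaks, neither share differed from that over all reproducible peaks beyond counting error. Within 100 bp both shares of the homeobox peaks were above those of all peaks, at 33.3% against 22% for E2F and 66.7% against 52.9% for CHR. The 4 peaks supported in each replicate held neither core within 50 bp. A match or its absence describes these letters only.

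The Hox genes had no reproducible summit in any window. ceh-13 is the worm labial-like gene, lin-39 acts in the midbody and the vulval precursor cells, mab-5 in posterior epidermis and neuroblasts, egl-5 in the tail, and nob-1 and php-3 pattern the posterior of the embryo. The count of 0 of 6 allows a share of up to 50% by 3 counts and 39% by the Wilson bound, against 23.2% of all genes with a summit in any window and 14.8% with one in the promoter. So few genes cannot show a difference from those shares. In the pooled list each of the 6 had an entry in some window, against 61.6% of all genes, and only lin-39 had one in its promoter, against 33.2% of all genes.

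The strongest pooled entry of a Hox gene was the one 555 bp upstream of nob-1, with a score of 18.8. It scored 8.63 in replicate 1 and 10.4 in replicate 2. The lin-39 (WBGene00003024) promoter entry scored 18.4, with its summit 40 bp upstream of a start, and 6.88 in replicate 1 and 6.63 in replicate 2. Both were below the lowest reproducible score of 35.7. The strongest pooled entries of the others scored 15.5 in an intron of mab-5, 13.3 upstream of egl-5, 9.59 in an intron of php-3 and 7.81 upstream of ceh-13.

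In replicate 2 some Hox entries had a −log10 q of 4.222 at low scores. Examples are the entry 925 bp downstream of the ceh-13 start, in an intron (score 11.0), and one in an intron of mab-5, 4671 bp from a start (10.5). Neither gene had an entry above a −log10 q of 2 in replicate 1 or in the pooled list in any window.

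The nearest reproducible peak of each Hox gene lay in the promoter of another gene. Its distance from a start was 14856 bp for ceh-13 (score 91.0, promoter of R13A5.7), 13943 bp for lin-39, 12056 bp for mab-5, 14756 bp for egl-5 (score 76.0, promoter of kcmf-1), and 20794 bp for nob-1 and 18915 bp for php-3, which share 1 peak (score 146, promoter of arx-3). Those of ceh-13, egl-5, nob-1 and php-3 are outside the intervals described next. In the 49401 bp from 10 kb left of lin-39 to 10 kb right of ceh-13 (chromosome III 7518641 to 7568041), there was 1 reproducible peak, with a score of 510.4. It is the peak nearest lin-39, in the promoters of cux-7 and C07H6.2, and no reproducible peak was found in the stretch between lin-39 and ceh-13. In the 60307 bp around mab-5 and egl-5 there were 3 reproducible peaks, with scores of 94.2 and 177 in the promoters of snu-23 and cyk-7 and 142 upstream of snu-23 and ZK686.1. In the 30099 bp around nob-1 and php-3 there were none. Reproducible peaks were thus present at 20.2, 49.7 and 0 per Mb across these intervals, against 38.1 per Mb over the genome. So few peaks per interval cannot show a difference from that density. Pooled entries were present at 304, 232 and 332 per Mb across these intervals, against 285 per Mb over the genome.

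**Figure D4:**
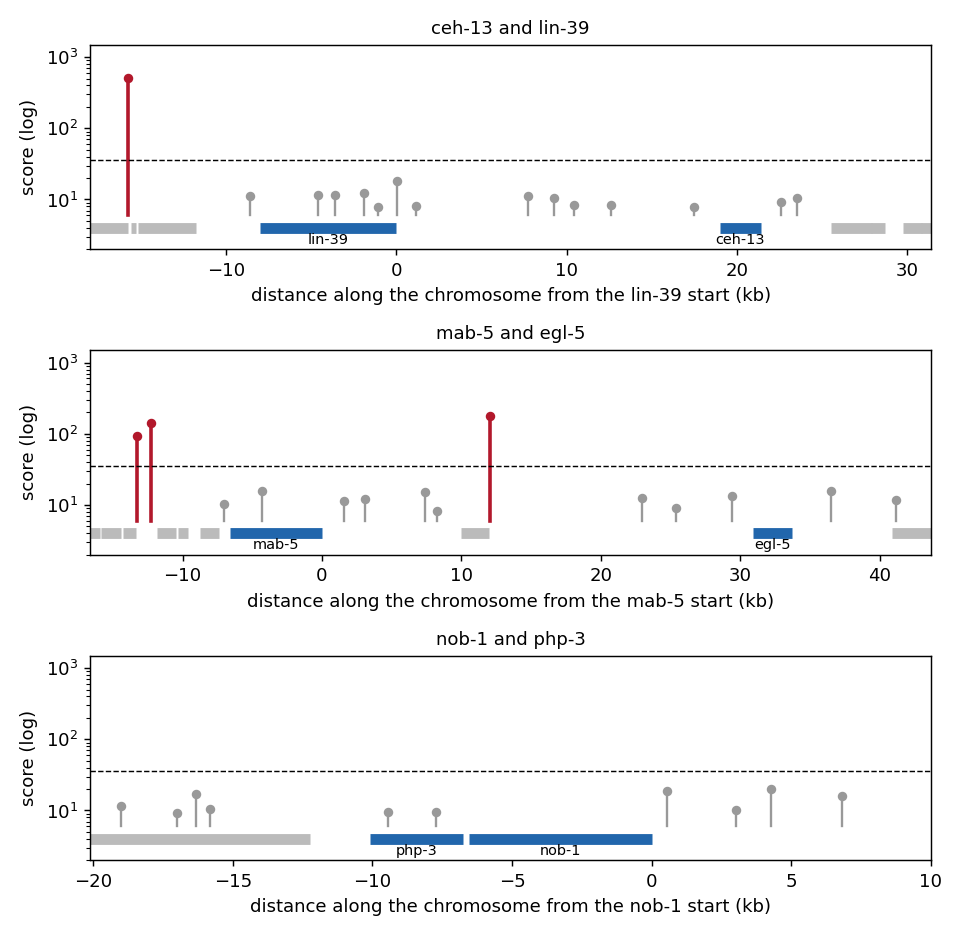
Pooled-list entries across the 3 Hox intervals, with distance along the chromosome (kb) from the start of lin-39, mab-5 or nob-1 on the x axis and the authors' score (log scale) on the y axis. Red entries are in the reproducible list, grey ones are not, the dashed line is the lowest reproducible score, Hox genes are blue bars and other genes grey bars. The 4 red entries stand away from the Hox genes, and the highest, 510.4, is at cux-7.

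In 6 classes, with 27 genes in all and 1 to 9 in each, no gene had a reproducible summit in any window, against 23.2% of all genes. The count of 0 of 27 allows a share of up to 11.1% by 3 counts and 12.5% by the Wilson bound, but these classes were put together because none of their genes had a summit, so the count is a description. None was found at the 9 paired-like genes, which include unc-4 of motor neurons, ceh-36 and ceh-37 of sensory neurons and ceh-10 of interneurons and migrating neurons. None was found at the 5 LIM genes, which include mec-3 of touch neurons and ttx-3 of the AIY interneuron. The 3 POU genes, with unc-86 of neuroblast lineages, the 3 genes of the sine oculis class, with ceh-34 of pharyngeal neurons, and the even-skipped relative vab-7 had none either. The Hox genes were the sixth class.

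Of the NK and other ANTP genes, ceh-22 of pharyngeal muscle, ceh-16 of seam cells, an engrailed relative, and ceh-43, a Distal-less relative, were among the 17 without a reproducible summit. The strongest pooled entry of ceh-43 (WBGene00000463), in an intron 308 bp from a start, scored 32.4, close under the lowest reproducible score. It scored 31.0 in replicate 2, and replicate 1 had no ceh-43 entry in the windows.

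Over the 64 homeobox genes without a reproducible summit, 40 had a pooled entry in some window and 24 had none. The strongest pooled entry of these 40 had a median score of 11.9 and scored 7.72 to 32.4. Only ceh-43, ceh-58 and ceh-18 among them had a pooled entry with a −log10 q above 2. The 11 genes with no entry in any window of any list were ceh-1, ceh-7, ceh-12 and ceh-30 of the NK and other ANTP class, ceh-53 of the paired-like, lim-4 of the LIM and unc-86 of the POU class, and ceh-76, ceh-84, ceh-87 and ceh-90 without a class. Outside the windows, their nearest entry of any list lay 448 bp (ceh-84) to 6230 bp (ceh-76) from a start. The share of all genes with no entry in any list is not given here.

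In the pooled list, which includes background, 21 of 75 homeobox genes had a promoter entry (28%, interval 19.1% to 39%), against 33.2% of all genes. Any window held an entry at 51 (68%), against 61.6% of all genes. An upstream entry was present at 33 (44%), against 40.3% of all genes, and an intron entry at 22 (29.3%), against 22.1%. The median strongest promoter score in this list was 13.2 over the homeobox genes and 24.5 over all genes.

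In replicate 1 the promoter share was 22.7% for homeobox genes and 30.1% for all genes, the upstream share 52% against 43.5%, and the intron share 32% against 25.8%. Any window held an entry at 54 homeobox genes (72%), against 66.8% of all genes. In replicate 2 the promoter share was 29.3% for homeobox genes and 33.9% for all genes, the upstream share 44% against 36.9%, and the intron share 24% against 18.4%. Any window held an entry at 43 homeobox genes (57.3%), against 53.7% of all genes. In each of the 3 lists the homeobox share was below that of all genes in promoters and above it upstream and in introns. In every case the share of all genes lay inside the interval of the homeobox share. The pooled list joins both replicates, so the 3 lists are not independent. None of the differences between homeobox genes and all genes was tested.

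**Figure D5:**
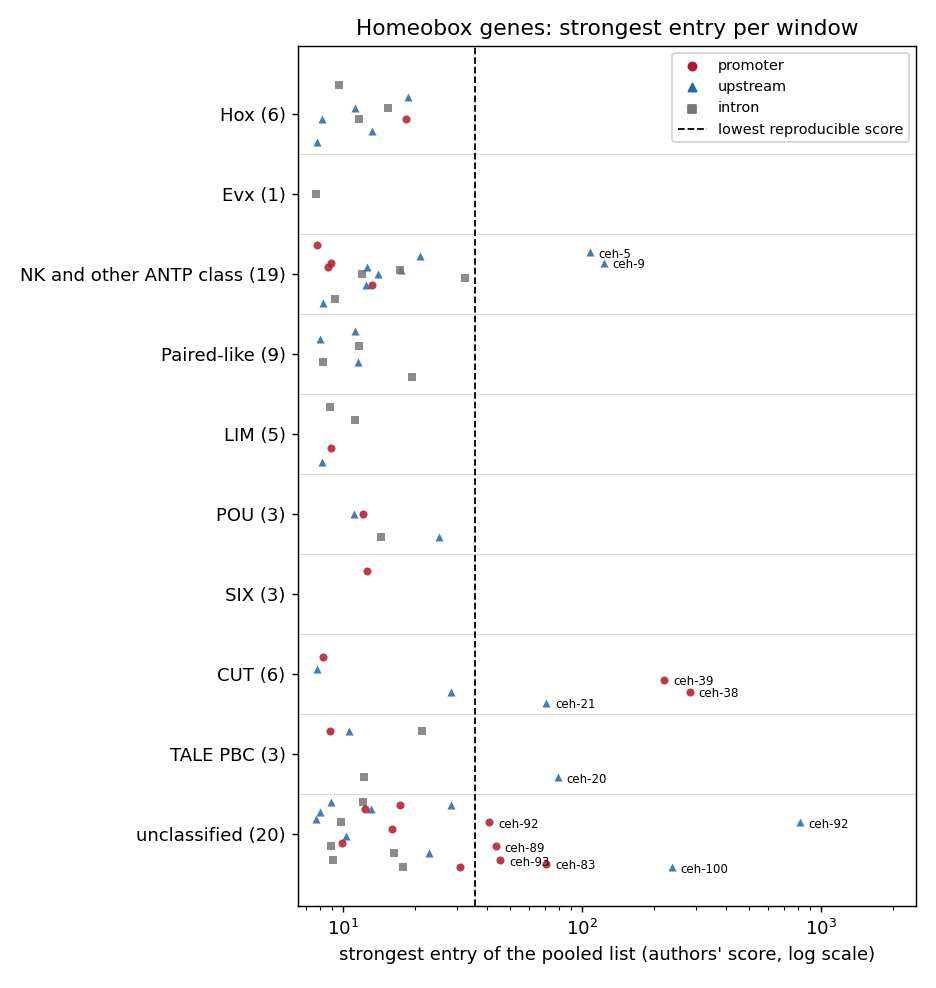
Strongest pooled-list entry per gene and window (authors' score, log scale, x axis) for the homeobox genes of each class (y axis, with the number of genes). The dashed line is the lowest reproducible score, and genes beyond it are named. Entries beyond the line occur in the CUT, TALE PBC, NK and other ANTP, and unclassified rows.

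On the X chromosome 3 of 21 homeobox genes had a promoter summit (14.3%, interval 4.98% to 34.6%), against 6.37% of all X-linked genes. On the autosomes 3 of 54 did (5.56%, interval 1.91% to 15.1%), against 16.1% of all autosomal genes, a share above that interval. The intervals of X-linked and autosomal homeobox genes overlap, and their difference was not tested. This split was chosen after the values were seen.

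Homeobox genes had a median of 2507 bp between their start and the next protein-coding gene upstream, against 1034 bp for all genes and 533 bp for genes with a promoter summit. With up to 500 bp of upstream space, 3 of 15 homeobox genes had a promoter summit (20%), against 22.8% of all such genes. With over 500 and up to 2000 bp the counts were 2 of 19 (10.5%) against 14.9%, and with over 2000 bp 1 of 41 (2.44%) against 7.31%. The part of upstream space in the lower share of homeobox genes was not tested. The median distance to the nearest reproducible summit was 10872 bp for homeobox genes and 8894 bp for all genes.

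The homeobox genes outside the symbol rule that were examined had no reproducible promoter summit. Of 27 such genes, among them unc-62 (the Meis relative that partners Hox proteins), pal-1, lin-11, unc-30 and vab-3, none had one, which allows a share of up to 11.1% by 3 counts and 12.5% by the Wilson bound, against 14.8% of all genes. Pooled promoter entries were present at 9 of them (33.3%), against 33.2% of all genes. This list was chosen with earlier results of these data known, so its shares are a description. Its difference from all genes was not tested.

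Among genes linked to the regulation of Hox expression the share was larger. Of 19 genes, mostly Polycomb-like, SOP and trithorax-related, 11 had a promoter summit (57.9%), against 14.8% of all genes. The strongest was at mes-2, the Enhancer of zeste relative, with a score of 2918 (418 in replicate 1 and 2503 in replicate 2). The other 10, in order of score, were set-2 (1388), set-16 (819), mes-6 (772), ash-2 (187), sop-2 (124), lin-49 (108), sor-1 (106), wdr-5.1 (92.2), lin-59 (75.1) and sor-3 (54.3). Of these 11 genes, only mes-2, set-2, set-16, mes-6 and ash-2 had a promoter peak supported in each replicate at a −log10 q above 2. Of 16 genes that lie upstream or downstream of Hox genes in Wnt and vulval pathways, 2 had a promoter summit (12.5%), namely pop-1, the TCF factor of Wnt signalling (648, with 91.1 in replicate 1 and 556 in replicate 2), and lin-44, a Wnt gene (45.1). Both lists were chosen with earlier results of these data known, so their shares are a description. The difference between these lists and the homeobox genes was not tested.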

How the data were processed

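Peak lists from immunoprecipitation of EFL-1::GFP in L1 larvae were used, 2 libraries of 1 group. Per the labels, the size range was 150 to 350 bp. By the notes deposited beside the libraries, peaks and background were listed for each replicate's alignment, and for both pooled, with a control alignment. From these lists came the reproducible one, cut by irreproducible discovery rate (IDR). The peak caller, aligner and IDR threshold are not given in the sources used here. The score is the authors' deposited value of unstated scale, and the −log10 q-value was also deposited by the authors. Summit offsets were deposited too. The ce11 lists were used, the ce10 lists were not, and no coordinates were converted.

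Starts came from Ensembl release 115 of WBcel235 and sequence and product names from RefSeq. A summit counted for every gene whose window held it. Promoter took precedence over upstream, and upstream over intron. Where a gene had several starts, the distance is to the nearest one. Python 3.11.15, pandas 2.3.3 and scipy 1.17.1 were used. The assignment was checked on planted summits.

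Members, classes and lists were chosen with earlier results of these data known. Symbols were matched as spelled, and ceh-44, mab-18 and rnf-2 were not analysed here. Named genes were every Hox gene, every member with a reproducible summit, members without an entry and the strongest bound gene of each comparison list. The 3 strongest members whose pooled promoter entry overlapped an entry of any −log10 q in both replicate lists were named too. Other named genes were chosen after their values were seen. Shares were described with no set test. Alternatives were either replicate's 3824 strongest entries, the pooled list, stronger or better supported peaks, interval overlap, other promoter lengths, the nearest start and other motif windows.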

Additional observations from a re-analysis of the deposited data

How the results depend on the processing

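The number of homeobox genes with a promoter peak was 6, and it stayed at 5 to 8 with any overlap of the peak interval, a promoter 2 times or 0.5 times as long, each summit given only to its nearest start, and replicate 2 alone. With nearest starts the 6 genes (8.0%) compare with 11.4% of all genes. Leaving out 1 replicate gave 3 to 5 genes. The 3 came from replicate 1 alone (ceh-38, ceh-39 and ceh-93). The 5 came from replicate 2 alone, where ceh-100 came in and ceh-92 and ceh-93 dropped out. The promoter 2 times as long added ceh-100 and ceh-20. The count was 21 with all pooled entries, 2 in the stronger 50% of peaks and 2 among peaks supported in each replicate, both times ceh-38 and ceh-39. Upstream, the count of 6 became 33 with all pooled entries and 2 among peaks supported in each replicate, and 6 to 7 without 1 replicate. The upstream order of 8.0% against 9.05% of all genes was not stable. It turned with all pooled entries (44% against 40.3%) and with replicate 1 alone (9.33% against 8.56%). Interval overlap (9.33% against 8.63%) and the stronger 50% of peaks (5.33% against 5.02%) turned it too. It held with replicate 2 alone (8.0% against 9.19%) and among peaks supported in each replicate (2.67% against 3.19%). Intron counts, 0 in the reproducible list, were 22 with all pooled entries and 0 to 4 without 1 replicate. The pooled 22 were 29.3%, against 22.1% of all genes. The 4 from replicate 1 alone were ceh-36, ceh-45, ceh-60 and mab-5 (5.33%, against 2.89% of all genes). Both turn the order of 0 against 1.96%. Those 4 replicate 1 entries had a −log10 q of 0.592 to 0.978, below the 2 asked for as support. The median promoter score of 58.1 (169 over all genes) was 13.2 with all pooled entries (24.5), 251 in the stronger 50% of peaks (311) and among those supported in each replicate (512), 150 with the promoter 2 times as long (163), and without 1 replicate 38.9 (34.2, the only turned order) to 62.9 (145). The share of the 12 peaks with an E2F core was 8.33% within 25 bp (9.34% over all peaks), and within 100 bp it was 33.3% (22%), above and not below that of all peaks. The CHR share turned likewise, at 66.7% within 100 bp (52.9%), and was 8.33% within 25 bp (13%). The pooled list counts background by construction, and the causes of the other changes were not tested. No paired analysis was possible because the series has 1 group. The depth of the libraries is unknown, and 12 peaks limit every share given for them.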
